A study of Mus musculus with 2 samples.

Results

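The 65 genes described here are the mouse microRNA hairpins with late registry numbers that had reads in gastrocnemius muscle. A gene was taken when its GENCODE M21 symbol was Mir followed by a number of 1000 or more and when its own strand had 10 or more reads, summed over 2 libraries. This gave 65 of the 2202 annotated microRNA genes, and 65 of the 649 late-numbered ones. The rule left out 10 late-numbered genes, namely those in the imprinted Dlk1-Meg3 span of chromosome 12 and Mir3107; 8 of these 10 had 10 or more reads. It also left out hairpins within Sfmbt2, of which 0 were late-numbered. The genes were thus chosen by their same-strand read counts, so their levels are given as a description and were not tested.

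Both libraries came from 1 group: gastrocnemius, a calf muscle, of female B6CASTF1/J mice, the first-generation offspring of a cross between inbred strains, at an age of 14 days. RNA shorter than 30 nt was sequenced, and no treatment, genotype or second tissue was named. For replicate 1 the sample name speaks of 3 females and for replicate 2 of 1, and whether animals were pooled is not given in the sources used here. The replicates are numbered as biological ones but share a donor identifier, so the SD (n = 2 throughout) covers whatever differed between these samples, which may be technical.

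The libraries held 8002643 reads (replicate 1) and 12134412 reads (replicate 2), of which 33.4% and 35.4% were counted for microRNA genes. Levels are CPM: the reads of a gene divided by all reads counted for microRNA genes in the library and scaled to the same total in both, so that 1 read was worth 0.374 CPM in replicate 1 and 0.233 CPM in replicate 2. All 9 skeletal muscle microRNA genes chosen as markers had reads, with 96325 and 85876 CPM in sum. Nearly all of this sum was Mir206, with 95104.7 and 84694.5 CPM, whereas Mir133a-2 had only 2 and 9 reads. Mir1a and Mir133a have numbered copies, and reads that align to more than 1 place were counted for no gene. The sums therefore do not rank the cell types. Of other cell types, the endothelial Mir126a had 118724 and 119268 CPM, Mir143 and Mir145a of smooth muscle and fibroblasts 20228 and 20871 CPM, and 4 leukocyte genes 1185 and 853 CPM. The red cell genes had 437 and 185 CPM, and the hepatocyte Mir122 had 229 and 14.2 CPM. Of 6 neuronal genes, which are numbered copies of Mir124a and Mir9, only 1 had reads (0 and 0.932 CPM). Reads that align to more than 1 copy were counted for no gene, so these counts cannot show whether neuronal RNA was absent. Which cells of the muscle the late-numbered hairpins came from was not tested, and in whole tissue fewer cells of a type and less RNA per cell cannot be told apart.

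MicroRNAs are cut from hairpin-shaped transcripts, first in the nucleus by the Drosha and DGCR8 complex and then in the cytoplasm by Dicer, and the mature strand guides Argonaute proteins to messenger RNAs that pair with its seed, the bases near its 5′ end. Registry numbers follow the order of discovery, so abundant and conserved families hold the early numbers, and most late numbers were assigned from deep sequencing. Some hairpins bypass Drosha: mirtrons are short introns that fold into a hairpin after splicing, and a few hairpins are processed from small nucleolar RNAs (snoRNAs) or small Cajal body RNAs (scaRNAs), which normally guide the chemical modification of other RNAs. Many others lie in the introns of protein-coding genes and are transcribed with them.

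Mature sequences were found in the RefSeq table (build GRCm38.p6) for 63 of the 65 genes, 104 sequences in all; Mir1949 and Mir5099 had none there. The sequences below belong to some of the most abundant of the late-numbered hairpins that have one and to those on which the later comparisons of seeds, copies and strands turn. Capitals mark the seed, bases 2 to 8 from the 5′ end. The deposited counts pool both arms of a hairpin, so which arm the reads came from cannot be read from them. For Mir1930, Mir3099, Mir1198 and Mir3068 only 1 of the annotated arms is printed, and the choice does not mark the arm with reads.
miR-1839-5p (Mir1839): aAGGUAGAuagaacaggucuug
miR-1306-5p (Mir1306): cACCACCUccccugcaaacgucc
miR-1306-3p (Mir1306): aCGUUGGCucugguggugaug
miR-1843a-5p (Mir1843a): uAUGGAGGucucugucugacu
miR-1843b-5p (Mir1843b): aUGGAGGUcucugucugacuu
miR-1843a-3p (Mir1843a): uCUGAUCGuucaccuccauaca
miR-1843b-3p (Mir1843b): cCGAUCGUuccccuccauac
miR-7689-5p (Mir7689): cCGAGGCAgccuggcuuag
miR-7689-3p (Mir7689): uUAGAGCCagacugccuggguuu
miR-1249-3p (Mir1249): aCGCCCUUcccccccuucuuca
miR-1930-5p (Mir1930): aCCUCCAUaguaccugcagcgu
miR-3099-3p (Mir3099): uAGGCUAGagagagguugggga
miR-1198-5p (Mir1198): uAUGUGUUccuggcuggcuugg
miR-3068-5p (Mir3068): uUGGAGUUcaugcaaguucuaacc
miR-3074-5p (Mir3074-1): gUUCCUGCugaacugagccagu

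No seed was shared among the late-numbered hairpins: their 104 mature sequences had 104 distinct seeds. The 5p sequences of Mir1843a and Mir1843b come closest. Each is 21 bases long and they share a stretch of 20, but that of Mir1843a starts 1 base earlier, which shifts its seed by 1 base.

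Only 4 of the 104 sequences (3.85%) carried the seed of an earlier-numbered mouse microRNA, beside 61 of 802 (7.61%) for late-numbered hairpins with fewer than 10 reads. These 4 are shown with the partner whose seed they share, again with the seed in capitals.
miR-3102-5p (Mir3102): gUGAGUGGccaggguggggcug
miR-702-5p (Mir702): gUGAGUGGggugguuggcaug
miR-1983 (Mir1983): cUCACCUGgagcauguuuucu
miR-412-3p (Mir412): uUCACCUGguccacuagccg
miR-3475-5p (Mir3475): aAAUCAUGuacccccacagagg
miR-96-3p (Mir96): cAAUCAUGuguagugccaauau
miR-6240 (Mir6240): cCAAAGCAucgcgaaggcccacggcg
miR-330-3p (Mir330): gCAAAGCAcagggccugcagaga
Mir3102, with 259 and 452 reads, stood above its partner Mir702, which had 20 and 25 reads. Mir1983 (161 and 310 reads) stood below Mir412 (438 and 784), and Mir6240 (10 and 18) below Mir330 (197 and 409). Mir3475 had 7 and 26 reads, and Mir96 had 2 in each library. These counts pool all mature sequences of a hairpin, so they do not rank the sequences that share a seed. On the shorter match of bases 2 to 7, 20 of the 104 sequences (19.2%) met an earlier-numbered one, close to the 149 of 802 (18.6%) among hairpins with fewer reads. One of these was miR-1839-5p, annotated in the gene with the most reads, which matches miR-196a-5p and miR-196b-5p over those bases but not over bases 2 to 8.

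The totals here leave out reads that align to more than 1 place. Within the reads counted for microRNA genes, the late-numbered hairpins were a small part. In sum they had 4386 reads in replicate 1 and 6796 in replicate 2. This was 0.164% (exact 95% interval 0.159 to 0.169) and 0.158% (0.155 to 0.162) of the reads of microRNA genes, with a mean of 0.161% ± 0.00409. The median hairpin had 27 reads, whereas the 289 earlier-numbered genes with 10 or more reads had a median of 1134. At 1 CPM or more in both replicates were 61 of the 65, a level that 16.7% of all 2202 genes reached; the read threshold of the rule comes close to fixing that count. A mean of 10 CPM was reached by 18 and one of 100 CPM by 3, and 49 had 10 to 100 reads.

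Few hairpins carried most of these reads. Mir1839 alone held 37.1% of them, and ranked 94 among all microRNA genes, with 1674 and 2471 reads (626 and 576 CPM, mean 601 ± 35.8). Without it the share of the others was 0.101%. The next 8 genes ranked between 173 and 201. A read of a mature microRNA spans the whole molecule, so counts were not divided by hairpin length.

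**Figure D1:**
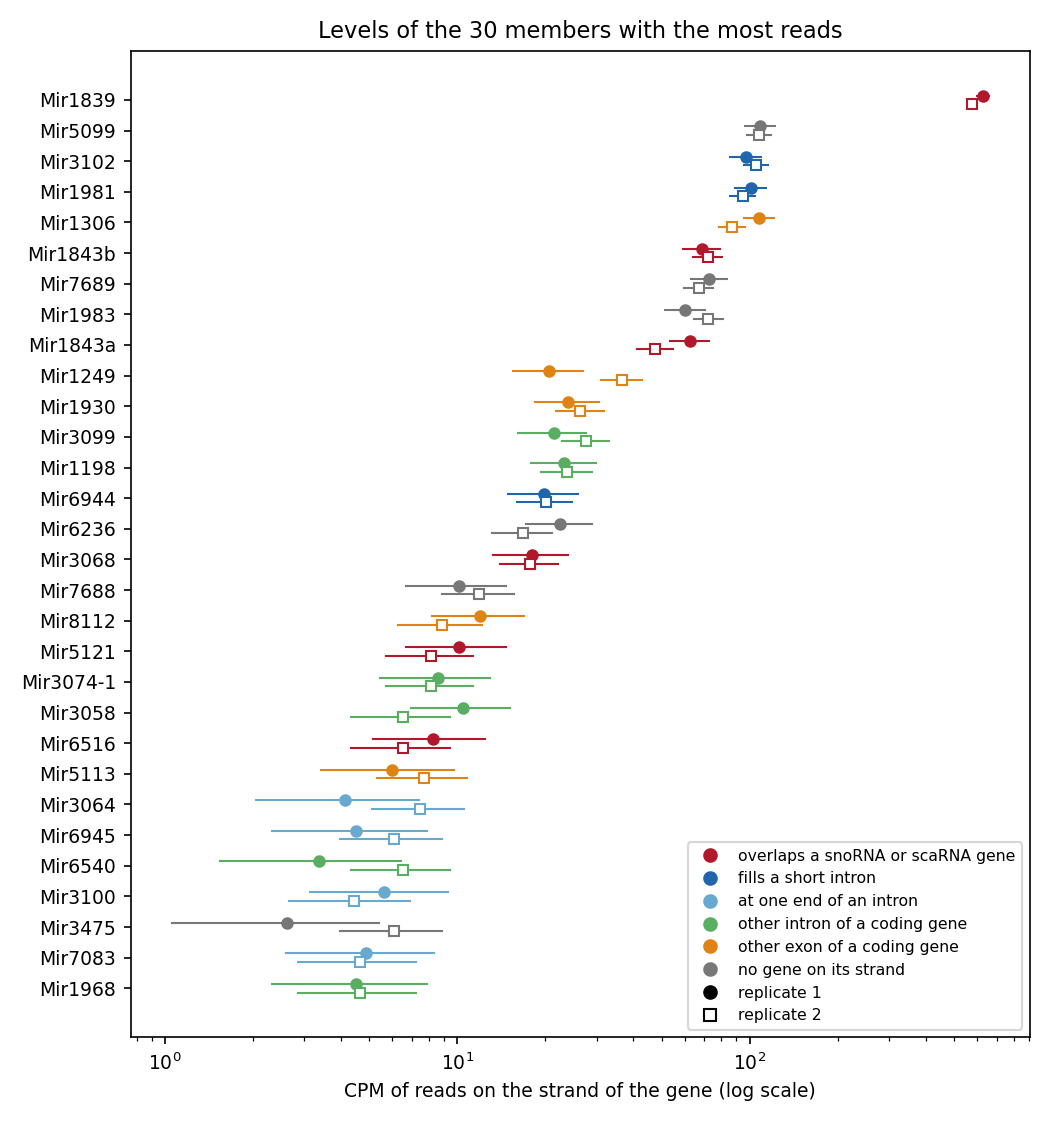
CPM (horizontal axis, log scale) of the 30 late-numbered hairpins with the most reads, in replicate 1 (filled circles) and replicate 2 (open squares). Lines are exact 95% counting intervals, and colours show where the hairpin lies. Mir1839 stands alone at 626 and 576 CPM, 8 genes follow between 47.5 and 109 CPM, and in the lower part of the plot the intervals of neighbouring genes overlap.

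Mir5099 on chromosome 12 (36816205 to 36816278, plus strand) was second, with 290 and 462 reads (109 and 108 CPM, mean 108 ± 0.617). It has no other GENCODE M21 gene on its strand. Mir3102 followed with 101 ± 5.94 CPM, Mir1981 with 97.9 ± 4.39 CPM (270 and 407 reads) and Mir1306 with 97.5 ± 14.6 CPM (288 and 374 reads). These 4 neighbours in the order did not differ by more than the spread of Mir1306 between replicates, the largest of the 4. In replicate 2, the counting interval of Mir1306 (78.5 to 96.4 CPM) lay below that of Mir5099 (98.0 to 118 CPM).

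Then came Mir1843b at 70.1 ± 2.32 CPM (183 and 308 reads), Mir7689 at 69.7 ± 4.05 (194 and 287 reads), Mir1983 at 66.2 ± 8.47 and Mir1843a at 55.0 ± 10.6 (167 and 204 reads). Mir1843b, Mir7689 and Mir1983 lay within the spread of Mir1983 of each other. A gap separated these from Mir1249, at 28.6 ± 11.3 CPM (55 and 157 reads), the hairpin with the widest spread relative to its level among the first 20. Below it, from Mir1930 (25.1 ± 1.68 CPM) through Mir3099, Mir1198, Mir6944 and Mir6236 to Mir3068 (17.8 ± 0.179 CPM), each step was at most as large as the spread of Mir3099 or Mir6236, which was 4.36 and 4.01 CPM.

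At the threshold the counts are thin. The last genes inside were Mir1960 (7 and 3 reads), Mir5132 (3 and 7) and Mir6990 (6 and 4). Just outside were 4 genes with 4 and 5 reads each, Mir3097, Mir6929, Mir7091 and Mir7685. In all, 24 of the 65 had 10 to 20 reads. Of the 574 late-numbered genes below the threshold, 359 had no read in either library, and all 574 had 245 and 422 reads in sum. A count of 0 allows a level of up to 1.12 CPM in replicate 1 and 0.699 CPM in replicate 2.

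By their place in the genome, most of these hairpins lie on the sense strand of a protein-coding gene: 27 in an intron only and 24 overlapping an annotated exon. A further 3 overlap an exon of a long noncoding gene, 1 lies in an intron of one, and 10 have no other gene on their strand. Reads were distributed differently from genes. The 3 in noncoding exons held 37.7% of the reads, nearly all from Mir1839, the coding introns 23.5%, the coding exons 20.4% and those without a host 18.2%.

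Overlap with a coding exon was annotated for 36.9% of these genes, for 19.5% of late-numbered hairpins with fewer reads and for 6.57% of earlier-numbered ones with 10 or more reads. Coding introns were the place of 41.5%, 50.5% and 33.9%, and no host on the same strand was found for 15.4%, 24.7% and 33.9%. Counted over GENCODE's basic set of transcripts, the 65 split into 35 in coding introns and 16 in coding exons. Shares over that set are not given for the other groups, so the contrast between groups holds for the full annotation only.

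**Figure D2:**
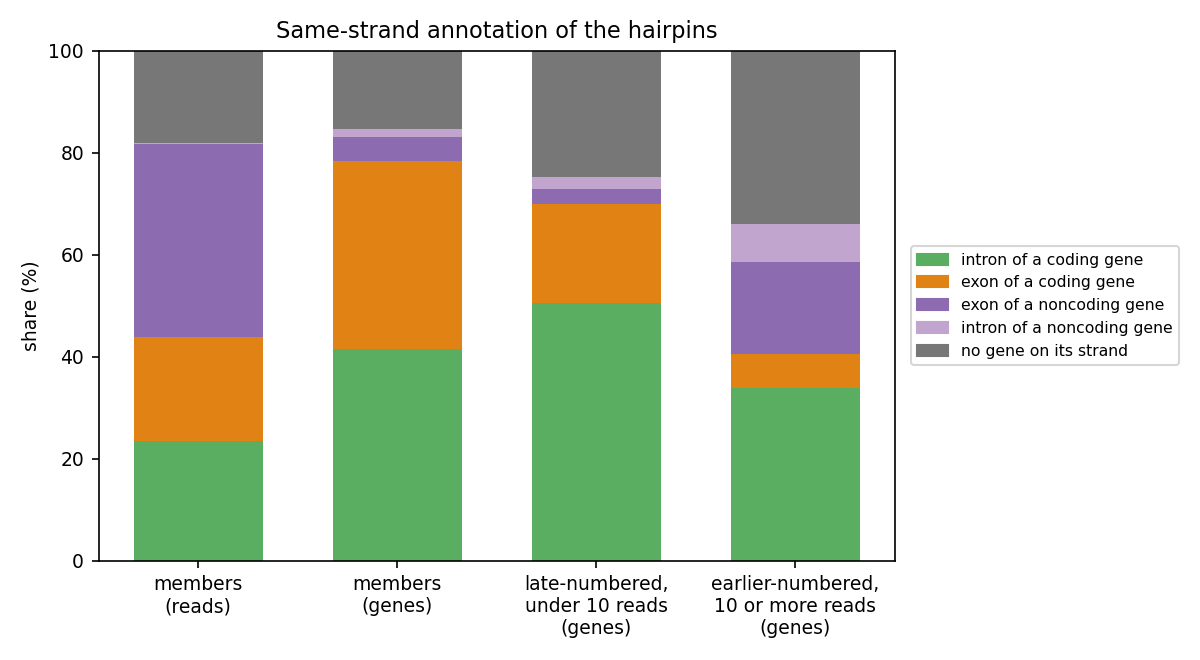
Share (%) in each class of same-strand annotation, for the reads of the late-numbered hairpins, for the 65 genes themselves, for 574 late-numbered genes with fewer than 10 reads and for 289 earlier-numbered genes with 10 or more. Coding exons take 36.9% of the 65 genes but 20.4% of their reads, and noncoding exons take 4.62% of the genes but 37.7% of the reads.

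Hairpins that overlap snoRNA or scaRNA genes were 8 (12.3% of the genes), with 2136 and 3148 reads, 47.3% of the total. Most of these reads were those of Mir1839: without it, the other 7 had 462 and 677 reads, 16.2% of the 7037 reads that remain. Such an overlap was annotated for 3 of 574 late-numbered hairpins with fewer reads (0.523%) and for 2 of 289 earlier-numbered ones (0.692%). This grouping was made after the annotation of the 65 genes had been seen. Without these 8, the others made up 0.0842% and 0.0850% of microRNA gene reads.

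Mir1839 (chromosome 7, 81529916 to 81529988, plus strand) lies with 90.4% of its length in a scaRNA gene of the same symbol, 127 bases long, inside the long noncoding gene 2900076A07Rik. Mir1843b (chromosome 1, 159340358 to 159340423, plus strand) lies in the 3′ part of Scarna3a in an intron of Cop1, a ubiquitin ligase. Its relative Mir1843a (chromosome 12, 80391613 to 80391677, minus strand) lies at the same place in Scarna3b, in an intron of Dcaf5, a substrate receptor of a ubiquitin ligase. All of Mir1843a (100%) and 98.5% of Mir1843b lie within the scaRNA gene.

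In the same group, Mir3068, in an intron of the demethylase gene Alkbh1, had 48 and 76 reads and lies with 96.2% of its length in a snoRNA gene. Mir5121 had 27 and 35 reads and overlaps Snord33 by 40.5% of its length, at an exon border of the ribosomal protein gene Rpl13a. Mir6516 had 22 and 28 reads in a scaRNA gene within Snhg20. Mir1949 (6 and 15 reads) and Mir1291 (9 and 11 reads, with Snora34 in Kansl2) were lowest. Whether the counted reads were cut as microRNAs or were fragments of the longer RNAs was not tested, since the counts give no read positions. The sequenced RNA was shorter than 30 nt, and the overlapped genes measure 84 to 193 bases.

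Mir1843a and Mir1843b share 23 consecutive bases, and the 5p sequence of Mir1843b also occurs in the transcripts of Mir1843a and Scarna3b. Reads that align to more than 1 place were counted in a line of their own, which held 52.7% and 52.4% of the libraries, and not for any gene. Both counts are therefore uncertain, and how many reads of the shared stretch they miss was not tested. The other member with a mature sequence found at a second place was Mir3074-1, whose miR-3074-5p also occurs in Mir3074-2.

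Short introns that are wholly occupied by the hairpin were the place of 6 genes: Mir3102, Mir1981, Mir6944, Mir7018, Mir1982 and Mir1224. Both ends of each hairpin lay 0 bases from the flanking exons of 1 annotated intron, the arrangement that defines a mirtron. Their hairpins, from GENCODE M21 transcripts on mm10, are printed with the first and last bases of the intron in capitals. Each hairpin spans its annotated intron from border to border, so these bases follow from the selection and are no separate result.
Mir3102 (chr7:100882306-100882409, minus strand, Arhgef17): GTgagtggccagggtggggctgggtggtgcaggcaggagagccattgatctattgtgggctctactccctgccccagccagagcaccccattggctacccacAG
Mir1981 (chr1:184822407-184822488, minus strand, Marc2): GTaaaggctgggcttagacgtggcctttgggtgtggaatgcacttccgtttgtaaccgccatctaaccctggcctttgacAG
Mir6944 (chr13:55477681-55477776, minus strand, Dbn1): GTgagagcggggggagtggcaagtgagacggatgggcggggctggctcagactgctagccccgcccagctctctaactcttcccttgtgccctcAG
Mir7018 (chr4:137538286-137538370, plus strand, Hspg2): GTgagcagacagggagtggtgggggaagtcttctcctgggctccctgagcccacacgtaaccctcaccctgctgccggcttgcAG
Mir1982 (chr10:80828797-80828870, plus strand, Oaz1): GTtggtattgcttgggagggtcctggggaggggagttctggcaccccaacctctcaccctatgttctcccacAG
Mir1224 (chr16:20604452-20604536, plus strand, Vwa5b2): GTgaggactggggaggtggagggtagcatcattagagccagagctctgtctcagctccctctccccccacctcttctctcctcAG

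GT at the start and AG at the end were present in 6 of 6. Among late-numbered genes with fewer reads, 12 of the 19 hairpins within 10 bases of both intron ends had them. The 6 end exactly at the borders and the 19 need not, so these counts cannot be compared. Hairpins that fill an intron made up 9.23% of the 65 genes, 3.31% of late-numbered genes with fewer reads and 0.692% of earlier-numbered ones with 10 or more. They had 600 and 989 reads, 14.2% of the total.

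Their levels spanned a wide range. Mir3102 fills a 104-base intron of Arhgef17, a guanine nucleotide exchange factor gene, and had 96.9 and 105 CPM. It is also the only gene here with 4 annotated mature sequences, the others having 1 (24 genes) or 2 (38 genes). Mir1981 fills an 82-base intron of Marc2, a mitochondrial reductase gene, and had 101 and 94.8 CPM. The replicates of these 2 genes overlap in their counting intervals.

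Lower down, Mir6944, in a 96-base intron of the actin-binding drebrin gene Dbn1, had 53 and 86 reads (19.9 ± 0.145 CPM). Mir7018 had 12 and 19 reads in an 85-base intron of Hspg2, which encodes the basement membrane proteoglycan perlecan. Mir1982, in the antizyme gene Oaz1, had 5 and 13 reads. Mir1224 in Vwa5b2 had 1 read in replicate 1 and 12 in replicate 2. The first 2 of the 6 stood at 94.8 CPM or more in both libraries and the last 2 at 3.03 CPM or less.

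Position at only 1 end of an intron was the more common arrangement, with 14 genes, but they held few reads: 136 and 201, or 3.01% of the total. Of these, 12 lay at the downstream end, and 8 of the 12 ended exactly at the exon. The last bases of all 8 were AG, and they are also the last bases of the annotated intron. Among late-numbered genes with fewer reads 35.7% lay at 1 intron end, against 21.5% of the 65. Of the 172 that ended flush all ended in AG, which again follows from the position.

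In level these 14 ranged from 1.38 CPM (Mir5132 at an Irak1 exon) to 9.13 CPM (Mir5121). Mir3100 lies at the end of an intron of Dmpk, the kinase gene whose repeat expansion causes myotonic dystrophy, and had 15 and 19 reads (5.02 ± 0.839 CPM). Mir1963 ends 1 base from an exon of Ryr1, the calcium release channel of skeletal muscle, and had 6 and 5 reads (1.71 ± 0.764 CPM). Mir3064, at an exon of the RNA helicase gene Ddx5, had 11 and 32 reads. Mir3100 and Mir1963, the hairpins in these genes of muscle function, were thus both low. The other 9 at an intron end (Mir6945, Mir7083, Mir7051, Mir7021, Mir3572, Mir6900, Mir7035, Mir7059 and Mir6990) had 10 to 38 reads.

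**Figure D3:**
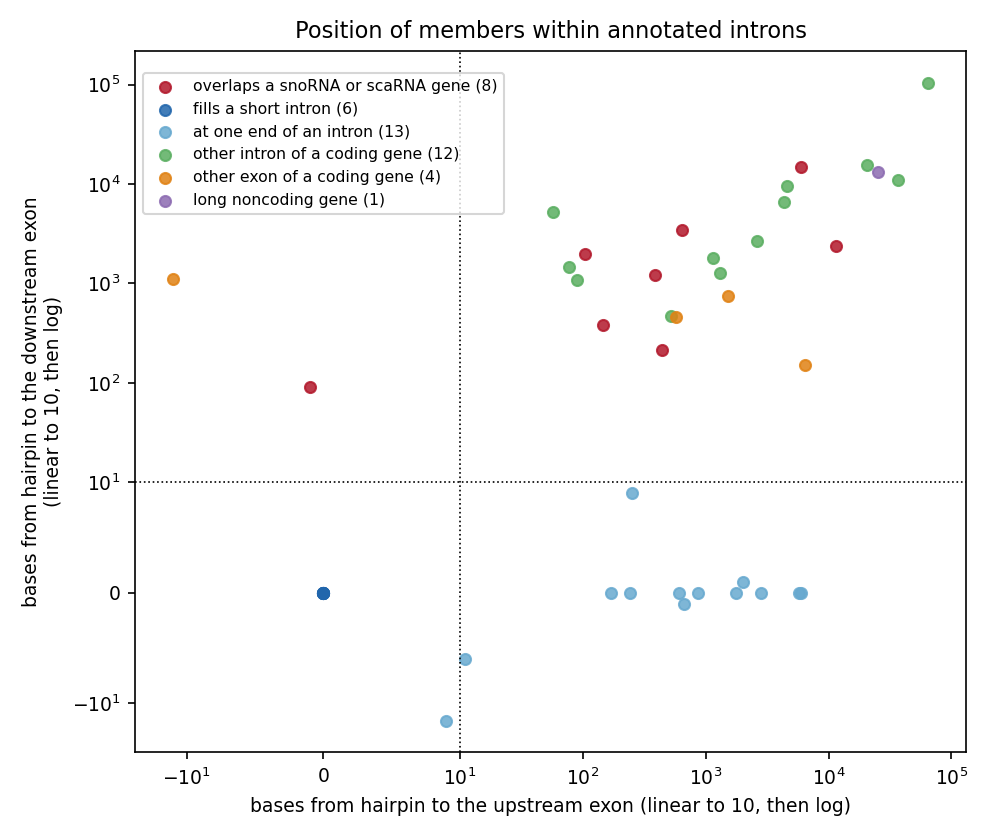
Distance in bases from each hairpin to the upstream exon (horizontal axis) and to the downstream exon (vertical axis) of its annotated intron, negative where it reaches into the exon, with both axes linear to 10 and logarithmic beyond. Each point is a gene that lies in an intron of some transcript, dotted lines mark 10 bases, the 6 hairpins that fill an intron coincide at 0 and 0, and most of those at 1 end lie along the line at 0 bases from the downstream exon.

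Away from intron ends and from snoRNA or scaRNA genes, 12 hairpins lay inside coding introns of 1062 to 169340 bases, and had 620 reads in sum. Mir3099 had the highest level, 24.4 ± 4.36 CPM (57 and 118 reads), on chromosome 7 (6803587 to 6803670, plus strand), in the long intron of Usp29, a gene of the imprinted Peg3 domain that is expressed from the paternal copy. Mir1198, in Gripap1 on the X chromosome, had 62 and 102 reads (23.2 and 23.8 CPM). The other 10 stood between 1.66 and 8.50 CPM.

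Among these, Mir3058 in Nudt4 had 28 reads in each library (10.5 and 6.52 CPM), and Mir6540 in Gap43, a growth cone gene of neurons, had 9 and 28 reads. Mir1968 in Grtp1 had 12 and 20 reads, Mir1955 in Phf21a 8 and 13, and Mir7213 in the growth factor gene Pdgfb 5 and 12. Mir1960, in the mitochondrial fatty acid oxidation gene Hadhb, had 7 and 3 reads. Mir6538, Mir3066 and Mir1938 had 13 to 21 reads, and Mir3074-1 in Fancc, described with the opposite strand, had 23 and 35.

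The 24 hairpins in coding exons fell into 3 kinds. In 8 the hairpin overlaps protein-coding sequence (851 reads in sum), in 9 it overlaps an untranslated region and no coding sequence (268 reads), and in 7 it overlaps only exons of transcripts without a coding sequence (1164 reads), Mir3102 among them.

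Mir1306 accounts for most reads of the first kind. It lies in the coding sequence of Dgcr8 (chromosome 16, 18284239 to 18284317, minus strand), the gene of the Drosha partner that opens microRNA processing, and had 108 and 87.1 CPM. The other 7 hairpins in coding sequence had at most 62 reads each: Mir5121, Mir3064, Mir3057 in Apba3 (14 and 12 reads), Mir6715 in Tectb (7 and 10), Mir3572 in Cnot3 (7 and 9), Mir1199 (9 and 6) and Mir5132 (3 and 7).

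In untranslated regions the levels were low, from 1.78 to 10.4 CPM. The highest was Mir8112, in the 5′ untranslated region of Krcc1 with Smyd1, a muscle methyltransferase gene, on the other strand; it had 32 and 38 reads. Next was Mir5113 in the 3′ untranslated region of Tnrc6b, whose product binds Argonaute in microRNA silencing, with 16 and 33 reads. Mir6945 in Pdlim7 had 12 and 26 reads. Mir8114, in the glutamine synthetase gene Glul, had 3 and 16. Another 4, Mir5133, Mir5130, Mir3061 and Mir8115, had 11 to 21 reads in sum.

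Of the third kind, Mir1249 on chromosome 15 (84951526 to 84951623, minus strand), in an incompletely spliced transcript of 5031439G07Rik, had 20.6 and 36.6 CPM. Mir1930, in one of Ube2g2, a ubiquitin-conjugating enzyme gene, had 64 and 113 reads (23.9 and 26.3 CPM). Apart from Mir3102, the remaining 4 had 10 to 21 reads: Mir1982, Mir7035 in Rasa4, Mir7051 in the electron transfer gene Etfb (10 and 11) and Mir6990 in Esrra, a nuclear receptor of energy metabolism (6 and 4).

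Without a gene on their own strand in GENCODE M21 were 10 hairpins, with 768 and 1264 reads. Overlap with RNA genes or repeats outside that annotation was not tested. Besides Mir5099, these were led by Mir7689 (chromosome 5, 36301570 to 36301628, plus strand), which lies opposite the sorting receptor gene Sorcs2 and had 72.6 and 66.9 CPM. Mir1983 (chromosome 13, 21896918 to 21897049, minus strand) had 60.2 and 72.2 CPM. Below these 3 came Mir6236 (60 and 72 reads), Mir7688 (27 and 51), Mir3475, Mir6240, Mir8111 (10 and 15), Mir1969 (5 and 13) and Mir1934 (4 and 10).

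Outside coding genes and scaRNA overlaps, 2 hairpins lay in long noncoding genes. Mir1247, in an exon of the imprinted Dio3os, had 8 and 15 reads, and Mir7211, in an intron of Tmcc3os, had 3 and 17.

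On the opposite strand, 63 of the 65 hairpins had no read in either library. The share over all microRNA genes was not computed, so this count does not set these hairpins apart. Among the 639 late-numbered genes outside the left-out loci, 7 have another microRNA gene on the opposite strand, and of these only Mir3074-1 reached 10 reads. It lies antisense to Mir24-1, in an intron of the Fanconi anaemia gene Fancc (chromosome 13, 63301199 to 63301283, minus strand). Mir3074-1 had 23 and 35 reads (8.61 and 8.15 CPM, mean 8.38 ± 0.319) and Mir24-1 had 98 and 166 reads (36.7 and 38.7 CPM, mean 37.7 ± 1.42). Mir24-1 had the more counted reads in both libraries, and neither gene's replicates differed beyond counting error. Both genes have a numbered copy, Mir24-2 and Mir3074-2, and miR-3074-5p occurs in both Mir3074 genes. Reads that align to more than 1 place were counted for no gene. How many reads each strand misses was not tested, so the order holds for the counted reads only. The unstranded counts gave 0 reads for both genes in both libraries. The other hairpin with an opposite-strand read was Mir3102, with 1.

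In composition the 65 hairpins had a median GC content of 55.1%, beside 53.5% for late-numbered hairpins with fewer reads and 48.6% for earlier-numbered ones with 10 or more. Their median length was 83 bases (73 and 84), and the energy predicted by RNAfold was -0.455 kcal/mol per base (-0.386 and -0.433), lower values meaning a firmer fold. The middle 50% of the 65 covered -0.527 to -0.362 and that of late-numbered hairpins with fewer reads -0.450 to -0.322, so the groups overlap widely.

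Within the 65, the 8 hairpins in snoRNA or scaRNA genes had a median GC content of 48.1% and an energy of -0.334 per base, while the 6 that fill an intron had 61.7% and -0.468, and those in coding exons 60.3% and -0.482. Mir1839, the most abundant, had the lowest GC content of the 65, 37.0%. Across the 65 genes, Spearman's rank correlation with the read sum was -0.252 for GC content, 0.269 for energy per base and 0.0481 for length. These correlations are over genes of the same 2 libraries and are given as a description.

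**Figure D4:**
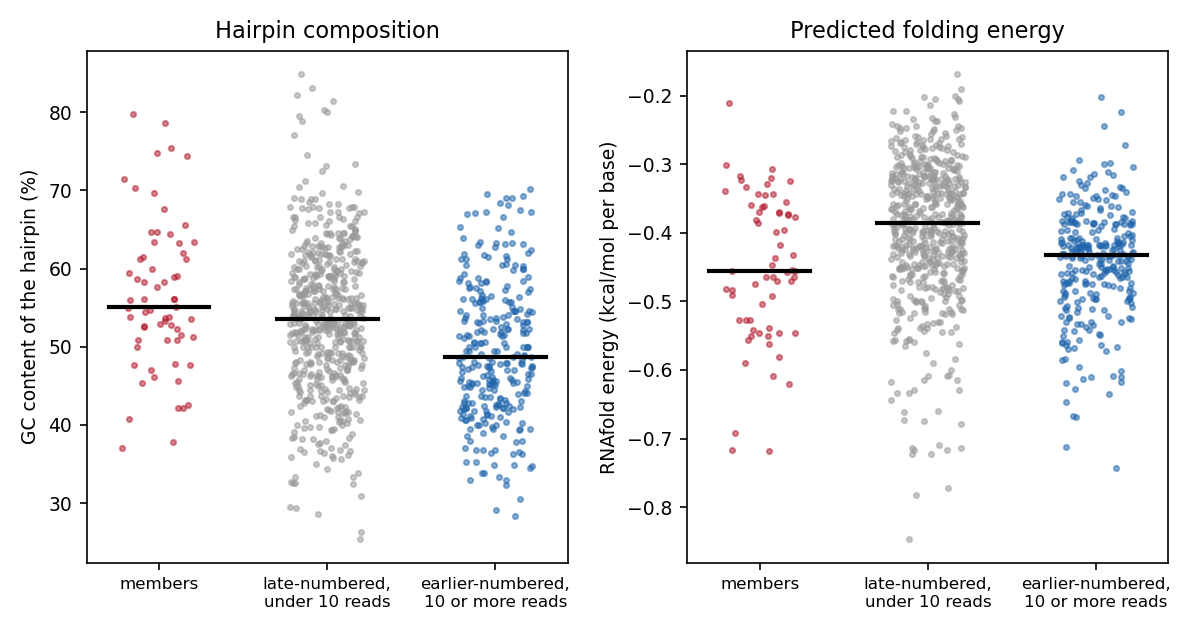
GC content (left, %) and RNAfold energy (right, kcal/mol per base) of the 65 late-numbered hairpins, of 574 late-numbered hairpins with fewer than 10 reads and of 289 earlier-numbered ones with 10 or more; each point is a gene, spread sideways for visibility, and black lines are medians. The medians are 55.1%, 53.5% and 48.6% for GC content and -0.455, -0.386 and -0.433 for energy, with wide overlap.

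By registry number, the share of hairpins that reached 10 reads was highest among Mir1000 to Mir1999, at 22 of 82 (26.8%), which also held 7599 of the 11182 reads. It was 12 of 83 (14.5%) for the 3000s, 7 of 51 (13.7%) for the 5000s, 10 of 207 (4.83%) for the 6000s, 10 of 180 (5.56%) for the 7000s and 4 of 32 (12.5%) for the 8000s. These shares follow from the read threshold of the rule and are a description. The 1000s also contain 5 of the 8 overlaps with snoRNA or scaRNA genes.

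Between the replicates, 32 of the 65 hairpins were higher in replicate 2 and 33 in replicate 1, with a median log2 ratio of -0.01, while the median over all 373 microRNA genes with 10 or more reads was 0.04. Here 11 of the 65 (16.9%) were 2-fold or more apart, beside 11.8% of the 373 genes. There is 1 library on each side, so no p-value was computed. Higher in replicate 2 by that margin were 4 (7.24% of all genes): Mir1224 (1 and 12 reads), Mir7211 (3 and 17), Mir8114 (3 and 16) and Mir3475 (7 and 26). Higher in replicate 1 were 7 (4.56% of all genes): Mir6538, Mir5130, Mir1199, Mir1938, Mir8115, Mir1960 and Mir6990, none with more than 12 reads in a library.

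All 11 had fewer than 100 reads. At a mean of 10 CPM or more, 0 of 18 were 2-fold apart, beside 3.85% of all genes at that level, and in the range of 10 to 100 reads it was 11 of 49 (22.4%), beside 36 of 127 (28.3%) of all genes there. Of the 18 late-numbered hairpins at 10 CPM or more, Mir1249 was farthest apart, with a ratio of 1.78 (replicate 2 over replicate 1, 95% counting interval 1.30 to 2.46). Mir1843a had a ratio of 0.761 (0.617 to 0.939), Mir1306 0.809 (0.692 to 0.946) and Mir1839 0.919 (0.863 to 0.979).

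Those 4, with Mir7211 (3.53, 1.02 to 18.8) and Mir1224 (7.47, 1.11 to 319), were the 6 of 65 hairpins (9.23%) whose counting interval did not include 1, beside 45.6% of all 373 genes. In the range of 10 to 100 reads it was 2 of 49 (4.08%), beside 21 of 127 (16.5%) of all genes there. At a mean of 10 CPM or more it was 4 of 18 (22.2%), beside 153 of 260 (58.8%). The width of these intervals depends on the reads, of which the earlier-numbered genes had the higher median. What sets these shares apart was not tested. Other pairs of values, such as Mir8112 (32 and 38 reads, ratio 0.739, 0.450 to 1.22), Mir6236 (0.747, 0.523 to 1.07), Mir3099 (1.29, 0.932 to 1.80), Mir1983 (1.20, 0.988 to 1.46) and Mir7688 (1.18, 0.724 to 1.95), were not distinguishable at this depth.

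**Figure D5:**
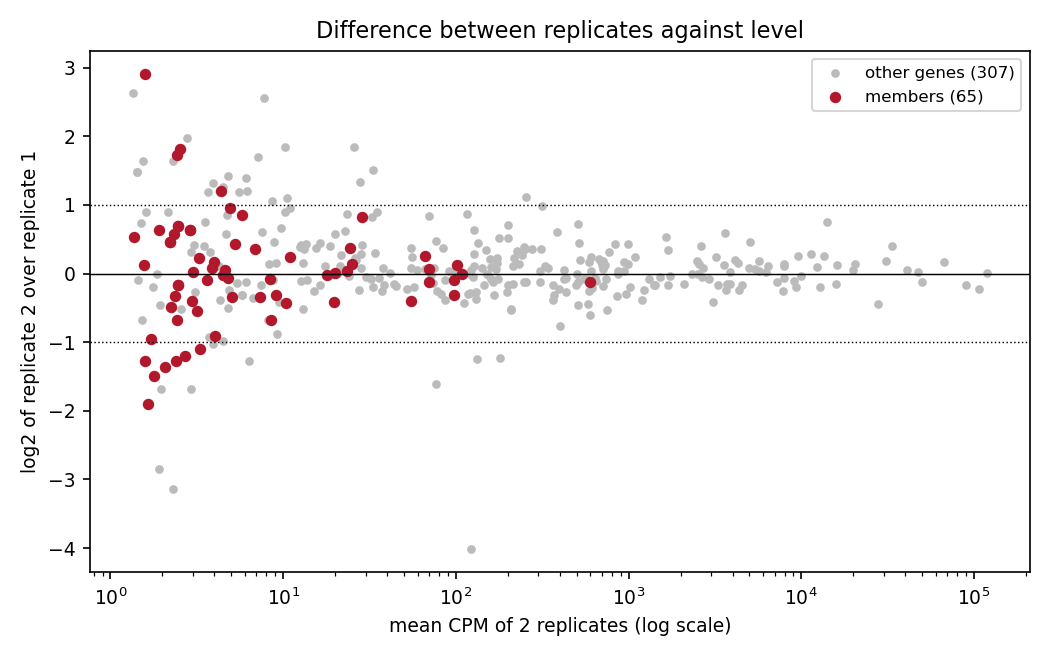
log2 ratio of CPM in replicate 2 over replicate 1 (vertical axis) against mean CPM (horizontal axis, log scale) for the 65 late-numbered hairpins (red) and the other microRNA genes with 10 or more reads (grey; 1 with 0 reads in a library is not drawn), with dotted lines at 2-fold. The red points spread beyond the lines only below 10 CPM, where 11 genes lie outside, and none of the 18 at 10 CPM or more does.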

How the data were processed

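Small RNA of 2 gastrocnemius samples (1 group) was sequenced. The deposited values are raw counts of reads per microRNA gene on mm10 with GENCODE M21, per the labels and the accompanying text of the deposit; which program aligned or counted the reads is not given in the sources used here. Of the 3 count columns, which carry no header and were read by their order, the same-strand one was used. Lines that name no gene held 66.6% and 64.6% of reads and stayed out of totals (2672454 and 4292012), to which CPM refer. Counting intervals are exact (Clopper-Pearson, 95%) and, like the limit for a count of 0 (3 reads), cover counting error only, since no molecular identifiers are named.

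Symbols, hosts, introns and hairpins came from GENCODE M21, with coding exon taking precedence over coding intron, noncoding exon and noncoding intron. A hairpin was at an intron end within 10 bases of the exon. Copies of mature sequences were sought in GENCODE transcripts, not in the genome as planned, as no genome sequence was used here. Folding used RNAfold 2.7.2. Scripts used Python 3.11.15 (numpy 2.4.6, pandas 2.3.3, scipy 1.17.1, matplotlib 3.10.9), and scaling alternatives R 4.3.3 with edgeR 4.0.16 (TMM) and DESeq2 1.42.0 size factors; the ratio computation was tested on simulated data. With 1 group, no groups were compared and no p-value was computed.

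The rule for named genes took the 20 highest, the 3 highest of each host class, those opposite a microRNA gene, those filling an intron, the 4 farthest apart between replicates in each direction at 10 CPM or more, and those next to the threshold; others were named after their values were seen. The 65 genes and the lists were chosen with earlier results of these data known. Alternatives covered the strand column, thresholds of 5 and 50 reads or 1 CPM, the left-out loci, denominators, basic transcripts, distances of 5 and 25 bases, seed length, scaling and each replicate alone. The value of 1 hairpin in an untranslated region is not reported singly here.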

Additional observations from a re-analysis of the deposited data

Results flagged for a closer look

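Mir3065 and Mir3074-2 are late-numbered hairpins below the threshold of 10 reads on their own strand, but the opposite-strand counts, which the levels above do not use, held a signal above the limit of 3 reads at both. At Mir3065 there were 1028 opposite-strand reads in replicate 1 and 2712 in replicate 2, beside 4 and 1 on its own strand. Mir338 is annotated on the other strand there and had a mean of 508 CPM in its own same-strand counts. At Mir3074-2 there were 347 and 452 opposite-strand reads, beside 1 and 1 on its own strand. Mir24-2 is annotated opposite and had the same 347 and 452 same-strand reads. These counts leave out reads that also align to Mir3074-1 or Mir24-1.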

How the results depend on the processing

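The read threshold sets the membership: 117 genes passed at 5 reads and 22 at 50, and with a single replicate 36 to 52 reached 10 reads. With those thresholds coding introns held 61 and 9 genes and noncoding introns 2 and 0, while at 50 reads coding exons held 6 and hairpins without a same-strand gene 5. The summed share, 0.161%, was 0.166% at 5 reads, 0.148% at 50, 0.216% with the unstranded column, 0.243% with the left-out loci put back (noncoding introns 3), 0.0554% of all reads, and 0.158% to 0.164% with single replicates. Chosen after seeing the data, it was 0.101% without Mir1839 and 0.0846% without snoRNA and scaRNA overlaps, whose part of the reads went from 47.3% to 16.2% without Mir1839. The unstranded column lost Mir3074-1 and gained Mir5620. The median log2 ratio between replicates turned from -0.01 to 0.0016 at 10 CPM or more, where 0 hairpins were 2-fold apart, and TMM or DESeq2 factors moved it by -0.04. With bases 2 to 7 as the seed, 18 hairpins and not 4 matched an earlier-numbered one. Leaving the 10 most abundant genes out of the total multiplies every CPM by 2.64 and 2.53 by construction. The other alternatives kept their counts within 1.5 times.

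No paired analysis was possible because there is 1 group. With 10 to 100 reads for 49 of 65 genes, depth limits most single ratios, and arms, read positions and reads aligned to several places were not analysed here.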
